A study of Mus musculus with 24 samples.

Results

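The genes described here are 6 of the 18669 genes counted in quadriceps femoris muscle: Arc, Jrk, Them6, Lynx1, Ndufa6 and Ttc38. They lie on chromosome 15 within 10 Mb of Hsf1, and they were selected on measured values, because their counts differed between untreated Hsf1-/- and wild type mice. Hsf1 itself was left out of the set. That difference chose the genes, so it is given as a description. The tests below compare treated mice, whose values the choice did not use, and R6/2 mice. Their estimate of the spread comes from all libraries, the untreated mice that chose the genes among them, so they are not fully independent of the choice. All 6 genes were among the 13754 genes tested, which reached a count of 2 in 10 or more libraries.

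RNA was sequenced in 24 libraries, each taken here as 1 mouse, 2 in each of 12 groups formed by 3 genotypes and 4 treatments, and muscle was taken 4 h after treatment. Wild type mice, R6/2 mice (a Huntington's disease model carrying a mutant huntingtin transgene under the human huntingtin promoter) and Hsf1-/- mice (homozygous knockouts) are all labelled CBA x C57BL/6 F1. Heat-shocked mice (HS) were kept at 41.5 °C for 15 min under isoflurane, and their control mice at 36.9 °C for 21 min. HSP990, an HSP90 inhibitor, was given by gavage at 12 mg/kg in methyl cellulose and saline, and the vehicle group is labelled as given saline. Wild type and R6/2 mice were 12 weeks old, whereas Hsf1-/- mice were 10 weeks old in the heat shock experiment and 8 weeks old in the HSP990 experiment, so age and the Hsf1 genotype cannot be told apart. The labels used here give no sex. The 4 Y-linked genes examined (Ddx3y, Kdm5d, Eif2s3y and Uty) summed to 163 to 230 CPM (counts scaled to a common library size) in all 8 Hsf1-/- mice and to 165 to 196 CPM in the 4 wild type mice of the HSP990 experiment. In the heat shock experiment they summed to 0 CPM in all 4 wild type mice and to at most 0.0881 CPM in the 4 R6/2 mice. In that experiment sex therefore went with the Hsf1 genotype and the 2 cannot be told apart, while in the HSP990 experiment all 12 mice expressed the male genes. For the 6 genes, the differences between Hsf1-/- and wild type mice are therefore also given within each experiment. Differences from R6/2 mice are averaged over both.

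HSF1 is the transcription factor that induces chaperone genes after proteotoxic stress. A knockout allele made in embryonic stem cells of one mouse strain and bred into another is inherited together with the DNA that flanks it, and crossing-over removes this DNA only slowly. Expression differences near a targeted gene can therefore come from sequence that differs between strains, from the lost protein or from the changed locus itself. The methods used here do not describe how the Hsf1-/- line was backcrossed and no sequence variant was read, so these sources cannot be told apart in these data.

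The 6 genes are known for different functions, and Arc, Jrk, Them6 and Lynx1 lie close together. Arc encodes a capsid-forming protein of neuronal synapses and is an immediate early gene induced by neuronal activity. Jrk encodes a nuclear protein derived from a DNA transposase of the pogo type. Them6 encodes a member of the thioesterase superfamily. Lynx1 encodes a small GPI-anchored protein of the Ly6/uPAR family that binds nicotinic acetylcholine receptors and dampens their response. Further along the chromosome, Ndufa6 encodes an accessory subunit of mitochondrial complex I, and Ttc38 a protein with tetratricopeptide repeats.

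In the mm9 build (NCBIM37) Hsf1 spans chr15:76307865-76331402 on the plus strand. On its centromeric side lie Arc (chr15:74499513-74503000, minus strand), Jrk (chr15:74532842-74539965, minus strand), Them6 (chr15:74551664-74554803, plus strand) and Lynx1 (chr15:74578286-74583409, minus strand), whose starts are 1.8, 1.77, 1.76 and 1.72 Mb from that of Hsf1. On the other side lie Ndufa6 (chr15:82180569-82184721, minus strand) at 5.88 Mb and Ttc38 (chr15:85662734-85689252, plus strand) at 9.35 Mb. Jrk shares 289 bp of exon, 5% of its exon length, with 4933427E11Rik on the opposite strand. Them6 lies inside the span of Lypd2 on the opposite strand with 0 bp of exon shared. The sources used here do not state whether counting used strand, so reads over the shared part of Jrk cannot be assigned. No other place in the genome matched at least 50% of a transcript of any of the 6 genes, or of Hsf1, at a divergence of at most 0.02.

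Promoter sequence in the RefSeq table was matched for 2 of the 6 genes, Ndufa6 and Ttc38. The 250 bases before each start are shown because HSF1 binds heat shock elements, whose core is written GAANNTTC or TTCNNGAA, and these promoters were searched for both. Each window matched the NCBIM37 genome exactly and at 1 place. The capitals mark CCAAT, the letters of a common promoter box, whose first base lies 52 bases before the start in Ndufa6 and 54 in Ttc38.
Ndufa6 (NCBIM37 chr15:82184722-82184971, minus strand): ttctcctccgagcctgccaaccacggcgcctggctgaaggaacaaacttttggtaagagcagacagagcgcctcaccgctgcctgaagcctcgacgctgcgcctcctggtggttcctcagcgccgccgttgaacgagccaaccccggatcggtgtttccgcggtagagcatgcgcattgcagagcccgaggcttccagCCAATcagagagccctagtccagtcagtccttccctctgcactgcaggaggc
Ttc38 (NCBIM37 chr15:85662484-85662733, plus strand): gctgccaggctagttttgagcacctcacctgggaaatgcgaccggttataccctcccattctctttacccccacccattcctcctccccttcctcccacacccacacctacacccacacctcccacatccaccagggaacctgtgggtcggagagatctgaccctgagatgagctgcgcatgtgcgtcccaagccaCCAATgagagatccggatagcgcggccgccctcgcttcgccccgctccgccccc
On both strands, GAANNTTC and TTCNNGAA were found 0 times in either window. Of 32851 mouse promoters of the same length, 6.69% hold GAANNTTC, 7.17% hold TTCNNGAA and 33.8% hold CCAAT. The absence of these letters says nothing of binding elsewhere. Arc, Jrk, Them6 and Lynx1 were not matched in the table.

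The targeted gene was measured first. Hsf1 lay between 52.9 and 68.6 CPM in the 8 wild type mice (median 64.1), between 45.3 and 53.7 CPM in the R6/2 mice (median 49.2), and between 21.1 and 29.0 CPM in the Hsf1-/- mice (median 27.5). The Hsf1-/- mice did not overlap with either other genotype. Counts were not lost completely, and which part of the gene they come from was not measured. The 12 chaperone genes HSF1 is known to induce gave a further check: 11 of 12 were lower in treated Hsf1-/- than in treated wild type mice and 0 higher (median log2 difference −3.49, all genes 0.004). Hsp90aa1, for example, was 10.1 ± 2.08 CPM (SD, n = 4) against 292.3 ± 157 CPM. The wild type SD includes the gap between treatments, with 159.6 ± 5.67 CPM after HS and 425 ± 55.3 CPM after HSP990 (SD, n = 2). Values are CPM scaled by TMM (trimmed mean of M values) throughout, and libraries held 22450177 to 46599238 counts. Markers of muscle fibre were abundant everywhere, with 8 of 8 detected and a summed level of 182000 to 231000 CPM in wild type, 176000 to 241000 CPM in Hsf1-/- and 36300 to 80400 CPM in R6/2 mice, whose scaling factors also stood apart (1.19 to 1.395, against 0.8079 to 0.954 in the others). In bulk tissue fewer cells of a type and less RNA per cell cannot be told apart.

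Untreated mice chose the genes. Averaged over control and vehicle mice, Arc was 1.96 ± 0.29 (log2, SE) and Jrk 0.91 ± 0.16 higher in Hsf1-/- than in wild type mice. Ttc38 (−1.50 ± 0.19), Lynx1 (−1.32 ± 0.14), Them6 (−0.88 ± 0.16) and Ndufa6 (−0.37 ± 0.07) were lower. Over all genes 0.974% passed an adjusted p of 0.05 in this comparison, by the quasi-likelihood test of edgeR, adjusted after Benjamini and Hochberg, which is the test used throughout. St13 (−0.48 ± 0.11) also lies in the window and was the last inside the threshold, but was not chosen. Just outside it were St3gal1 (0.495 ± 0.125), Lrrc24 (−0.95 ± 0.26) and Nol12 (−0.47 ± 0.13).

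Treated mice gave the same directions for all 6 genes. Averaged over HS and HSP990 mice, 4 of the 6 genes passed the test between Hsf1-/- and wild type mice, where 2.17% of all genes passed. Jrk was higher, and Lynx1, Ndufa6 and Ttc38 were lower. Them6 and Arc did not pass. The median difference of the 6 genes was −0.49 (log2), against 0.004 for all genes. The treated mice of both genotypes did not overlap for 4 of the 6 genes, Jrk, Them6, Lynx1 and Ttc38, against 6.18% of all genes. With 2 mice a group, 6 of the 6 genes did not overlap after HS (48.9% of all genes) and 5 of the 6 after HSP990 (40.4% of all genes). In HS mice alone 3 of the 6 passed, Lynx1, Ndufa6 and Ttc38 (0.967% of all genes), and in HSP990 mice alone, where all mice expressed the male genes, 2 of the 6 passed, Lynx1 and Ttc38 (1.64% of all genes). The difference between genotypes was not called to differ between HS and HSP990 for any of the 6 (0 of 6, with 0 at an unadjusted p under 0.05 in edgeR, 0 adjusted calls in DESeq2, and 0.16% of all genes called). The plot of counts by mouse shows these groups.

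**Figure D1:**
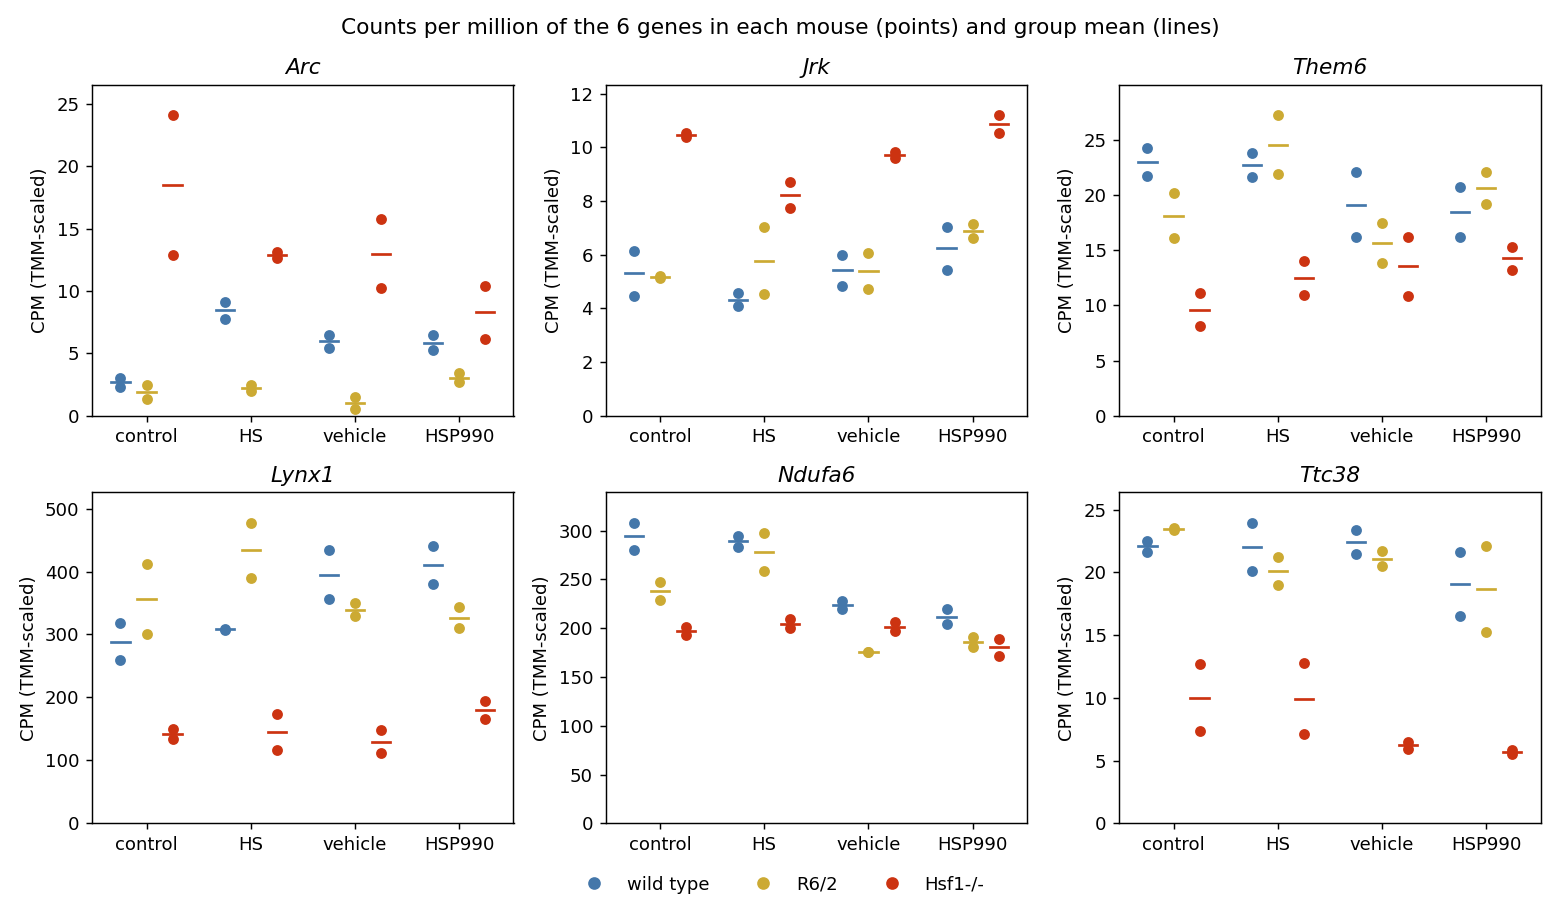
CPM (vertical axis, TMM-scaled, from 0) of Arc, Jrk, Them6, Lynx1, Ndufa6 and Ttc38 in each of 24 mice (points), by treatment (horizontal axis) and genotype (colour), with group means as lines. Jrk is higher, and Lynx1 and Ttc38 are lower, in all 8 Hsf1-/- mice than in any wild type mouse, while Arc and Ndufa6 differ more between the groups of a genotype.

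Lynx1 was lower in the Hsf1-/- mice in each treatment. In wild type mice it was 259.5 and 317.6 CPM in control, 307.7 and 308.7 in HS, 433.6 and 356.3 in vehicle, and 440.1 and 380.7 in HSP990 mice. R6/2 mice gave 301.5 and 411.7, 477.8 and 389.2, 329.2 and 349.2, and 310.0 and 343.5 CPM in the same order. The Hsf1-/- mice gave 149.9 and 133.9, 173.1 and 115.8, 147.6 and 111.5, and 193.7 and 165.0 CPM. The highest Hsf1-/- mouse lay below the lowest wild type and the lowest R6/2 mouse, although the untreated mice among them chose the gene. In treated mice Lynx1 was 2.21-fold lower in Hsf1-/- than in wild type mice (log2 difference −1.14 ± 0.14, adjusted p = 7.6e-05, edgeR). Within experiments the difference was −1.09 ± 0.20 after HS (adjusted p = 0.0088, edgeR) and −1.19 ± 0.20 after HSP990 (adjusted p = 0.0027, edgeR). The HS call was lost without the HS mouse 2 of the Hsf1-/- group (−0.83, adjusted p = 0.14, edgeR) or without either HS mouse of the wild type group (adjusted p = 0.070 and 0.073, edgeR). The averaged difference kept its call in every alternative fit and in each fit without 1 mouse. Against R6/2 mice Lynx1 was 2.34-fold lower (−1.23 ± 0.14, adjusted p = 1.5e-05, edgeR), and R6/2 did not pass against wild type mice (0.08 ± 0.14, adjusted p = 0.73, edgeR).

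The receptors that Lynx1 binds and its family were examined as fixed lists. Of 16 Ly6/uPAR genes tested, Lynx1 not included, 0 passed between treated Hsf1-/- and wild type mice (median −0.07), where 2.17% of all genes passed. Of 10 nicotinic receptor subunits tested, 0 were higher and 1 was lower, with a median of −0.48. The 1 gene was Chrnb1, the beta subunit of the muscle receptor, at 44.1 ± 7.48 CPM in Hsf1-/- and 67.2 ± 5.93 CPM in wild type mice (SD, n = 4; −0.61 ± 0.15, adjusted p = 0.038, edgeR). Within the experiments 0 of the 10 passed in edgeR (median −0.42 after HS and −0.66 after HSP990), where 0.967% and 1.64% of all genes passed. In treated R6/2 mice 4 of the 10 subunits were higher and 1 lower than in the same wild type mice (median 0.10). Of all genes 11.9% were called higher and 11.7% lower in that comparison. Chrna1, the alpha subunit of the muscle receptor, was 79.5 ± 20.6 CPM in treated R6/2 and 30.4 ± 4.01 CPM in treated wild type mice (SD, n = 4; 1.39 ± 0.14, adjusted p = 6.8e-06, edgeR). Chrnb1 was also higher, at 103.7 ± 37.1 CPM (0.59 ± 0.15, adjusted p = 0.0080, edgeR). Markers of Schwann cells and nerve, 7 of 9 of which were in the table, summed to 122 to 190 CPM in wild type, 116 to 161 CPM in R6/2 and 105 to 237 CPM in Hsf1-/- mice, and 0 of 7 passed between treated Hsf1-/- and wild type mice.

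Jrk was higher in the Hsf1-/- mice in each treatment. Wild type mice gave 4.45 and 6.16 CPM in control, 4.59 and 4.08 in HS, 6.00 and 4.85 in vehicle, and 7.04 and 5.43 in HSP990 mice. R6/2 mice gave 5.13 and 5.19, 7.03 and 4.54, 4.71 and 6.08, and 7.13 and 6.61 CPM. In Hsf1-/- mice the values were 10.6 and 10.4, 7.74 and 8.70, 9.61 and 9.84, and 10.5 and 11.2 CPM. All 8 Hsf1-/- mice lay above the 16 other mice, although the untreated Hsf1-/- and wild type mice among them chose the gene. In treated mice the difference from wild type was 1.82-fold (0.86 ± 0.16, adjusted p = 0.0045, edgeR). It missed the threshold within each experiment, at 0.92 ± 0.23 after HS (adjusted p = 0.066, edgeR) and 0.81 ± 0.22 after HSP990 (adjusted p = 0.092, edgeR), both of which passed in DESeq2 (adjusted p = 0.010 and 0.022). Jrk was 1.5-fold higher than in R6/2 mice (0.58 ± 0.15, adjusted p = 0.0098, edgeR), a call lost when libraries were scaled by their totals alone (0.07, adjusted p = 0.72, edgeR). That scaling moved the median of all genes between treated Hsf1-/- and R6/2 mice to −0.52. Of 7 other transposase-derived genes tested, including the centromere protein gene Cenpb, 0 passed between treated Hsf1-/- and wild type mice (median 0.03), where 2.17% of all genes passed.

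Them6 lay lower in the Hsf1-/- mice, but the groups came closer in the HSP990 experiment. In wild type mice it was 21.7 and 24.2 CPM in control, 21.6 and 23.8 in HS, 22.1 and 16.2 in vehicle, and 16.2 and 20.7 in HSP990 mice. R6/2 mice gave 16.1 and 20.2, 27.3 and 21.9, 13.8 and 17.4, and 22.0 and 19.2 CPM. The Hsf1-/- mice gave 11.1 and 8.13, 14.0 and 10.97, 16.2 and 10.9, and 15.3 and 13.2 CPM. The treated Hsf1-/- mice lay below all treated wild type mice, whereas 1 vehicle mouse of the Hsf1-/- group reached the lowest wild type mouse. The difference in treated mice, 1.53-fold (−0.62 ± 0.16), missed the threshold (adjusted p = 0.060, edgeR). It passed in DESeq2 (adjusted p = 0.013) and when either Hsf1-/- vehicle mouse was left out of the shared estimate of the spread (adjusted p = 0.044 and 0.045, edgeR), and the exact two-sided permutation test over 4 against 4 mice gave p = 0.0286, the smallest its 70 splits allow. Those splits exchange HS and HSP990 mice freely, so the permutation test did not hold treatment fixed. After HS the difference was −0.86 ± 0.23 (adjusted p = 0.094, edgeR), and after HSP990 −0.37 ± 0.23 (adjusted p = 0.57, edgeR). Them6 was 1.68-fold lower than in treated R6/2 mice (−0.75 ± 0.16, adjusted p = 0.0024, edgeR). Of 15 thioesterase genes tested, Them6 among them, 1 was higher and 0 lower in treated Hsf1-/- than in wild type mice (median −0.08), where 2.17% of all genes passed. The 1 gene was Acot2, a mitochondrial acyl-CoA thioesterase, at 30.6 ± 11.1 against 13.4 ± 2.31 CPM (SD, n = 4; 1.15 ± 0.27, adjusted p = 0.036, edgeR). Within the experiments 0 of the 15 passed in edgeR (median −0.09 after HS and −0.29 after HSP990), where 0.967% and 1.64% of all genes passed.

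Arc had the largest difference of the 6 in untreated mice and did not pass in treated mice. Wild type mice gave 3.01 and 2.31 CPM in control, 9.14 and 7.78 in HS, 6.50 and 5.43 in vehicle, and 6.44 and 5.26 in HSP990 mice. The Hsf1-/- mice gave 12.9 and 24.1, 12.6 and 13.1, 10.2 and 15.8, and 6.16 and 10.4 CPM. In R6/2 mice Arc was 2.47 and 1.34, 2.50 and 2.01, 1.49 and 0.542, and 3.44 and 2.67 CPM. The wild type control mice were the lowest of their genotype, and the Hsf1-/- mice lay above the wild type mice of the same treatment except after HSP990. In treated mice the difference between Hsf1-/- and wild type was 0.55 ± 0.28 (adjusted p = 0.37, edgeR), at 0.61 ± 0.39 after HS (adjusted p = 0.56, edgeR) and 0.49 ± 0.39 after HSP990 (adjusted p = 0.70, edgeR). The treatment responses of wild type and Hsf1-/- mice use untreated mice that chose the genes and are therefore given without a test. Arc differed between HS and control by 1.67 ± 0.41 (log2, SE) in wild type mice and by −0.52 ± 0.38 in Hsf1-/- mice, and between HSP990 and vehicle by −0.03 ± 0.40 and −0.66 ± 0.39.

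Arc was the one gene of the 6 that passed between treated R6/2 and wild type mice. It was 2.68-fold lower in R6/2 (−1.42 ± 0.29, adjusted p = 0.0019, edgeR; exact permutation p = 0.0286), and it was 1 of 6 genes called in a comparison where 23.5% of all genes passed. It was 3.92-fold higher in treated Hsf1-/- than in R6/2 mice (1.97 ± 0.29, adjusted p = 0.00012, edgeR). Within R6/2 mice Arc was 1.02 ± 0.669 CPM in vehicle and 3.05 CPM in HSP990 mice (means, n = 2), a difference of 1.56 ± 0.43 that missed the threshold in edgeR (adjusted p = 0.097) and passed in DESeq2 (adjusted p = 0.010). It also passed without the vehicle mouse 1 of the R6/2 group (2.48, adjusted p = 0.019, edgeR), and was 1.03 without vehicle mouse 2 (adjusted p = 0.55, edgeR). Of all genes 2.17% passed between treated Hsf1-/- and wild type mice, 0.967% after HS alone and 1.64% after HSP990 alone. The other immediate early genes were examined as a list of 18 tested. Between treated Hsf1-/- and wild type mice 1 was higher and 0 lower (median 0.19): Myc, a growth-promoting transcription factor that also lies on chromosome 15, was 32.8 ± 15.4 against 12.3 ± 1.68 CPM (SD, n = 4; 1.32 ± 0.28, adjusted p = 0.014, edgeR). After HS 0 of the 18 passed in edgeR (median 0.34). After HSP990 1 was higher, Myc (2.00 ± 0.39, adjusted p = 0.012, edgeR), and 1 lower, the transcription factor gene Jun, at 144.8 ± 53.3 against 489 ± 47.9 CPM (SD, n = 2; −1.76 ± 0.30, adjusted p = 0.0028, edgeR), with a median of −0.15. Between treated R6/2 and wild type mice 0 were higher and 5 lower (median −0.68), among them the nuclear receptor gene Nr4a3 (13.6 ± 11.6 against 73.4 ± 29.5 CPM, −2.76 ± 0.40, adjusted p = 0.00015, edgeR) and Homer1, a synaptic scaffold gene (8.40 ± 3.47 against 17.2 ± 3.95 CPM, −1.03 ± 0.22, adjusted p = 0.0023, edgeR).

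Ndufa6 had the smallest difference of the 6 genes, and the difference was larger in the heat shock experiment. In wild type mice Ndufa6 was 280.3 and 308.4 CPM in control, 283.7 and 294.9 in HS, 228.3 and 219.9 in vehicle, and 219.4 and 204.3 in HSP990 mice. R6/2 mice gave 229.3 and 247.7, 297.2 and 258.4, 175.6 and 175.8, and 180.9 and 191.2 CPM. The Hsf1-/- mice gave 192.7 and 200.9, 200 and 209.3, 196.8 and 206.3, and 171.8 and 188.8 CPM. Wild type and R6/2 mice were higher in the heat shock experiment, where they lacked Y-linked transcripts, than in the HSP990 experiment, and the Hsf1-/- mice, all with Y-linked transcripts, ranged from 171.8 to 209.3 CPM over both. In treated mice Ndufa6 was 1.29-fold lower in Hsf1-/- than in wild type mice (−0.37 ± 0.07, adjusted p = 0.0054, edgeR), although the mice of both genotypes overlapped (exact permutation p = 0.0571). After HS the difference was −0.50 ± 0.10 (adjusted p = 0.014, edgeR), a call lost without any 1 of the 4 HS mice compared (adjusted p = 0.071 to 0.21, edgeR) and in 3 of 8 other settings (adjusted p up to 0.13, edgeR). After HSP990, where sex did not differ, it was −0.23 ± 0.10 and missed the threshold (adjusted p = 0.33, edgeR). The averaged call was lost without the HSP990 mouse 1 of the Hsf1-/- group (−0.32, adjusted p = 0.056, edgeR) and when only treated libraries were fitted (adjusted p = 0.069, edgeR). The part of sex in this difference was not tested.

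Of 36 subunit genes tested, Ndufa6 among them, 0 were higher and 1 lower between treated Hsf1-/- and wild type mice, with a median of −0.14. The 1 gene was Ndufa6, and 2.17% of all genes passed. After HS alone 0 were higher and 2 lower, with a median of −0.26, where 0.967% of all genes passed. The second gene was Ndufa12, another accessory subunit, at 83.0 ± 0.13 against 127.5 ± 2.37 CPM (SD, n = 2; −0.62 ± 0.14, adjusted p = 0.044, edgeR). After HSP990 0 of 36 passed (0 higher and 0 lower, median −0.02), where 1.64% of all genes passed. In R6/2 muscle 29 of 36 subunits were lower and 0 higher than in treated wild type mice (median −0.48), where 23.5% of all genes passed. The skeletal muscle fibre markers moved with them, with 8 of 8 lower and 0 higher (median −1.56), and their part in the result was not tested. Ndufa10, an accessory subunit, was 225.2 ± 37.9 against 372.5 ± 42.6 CPM (SD, n = 4; −0.73 ± 0.10, adjusted p = 9e-05, edgeR). Ndufa6 was not among the 29 (−0.12 ± 0.07, adjusted p = 0.21, edgeR), and its sign turned when libraries were scaled by their totals alone (0.44). That scaling moved the median of all genes between treated R6/2 and wild type mice to 0.56, and relative to this shift Ndufa6 stayed lower. In untreated mice, described without a test, Ndufa6 was also lower in R6/2 than in wild type mice (207.1 against 259.2 CPM, −0.33 ± 0.07, mice overlapping). That was close to the untreated difference of Hsf1-/- mice (−0.37 ± 0.07).

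Ttc38 had the largest fall among treated mice, and the Hsf1-/- mice differed among themselves. Wild type mice gave 21.6 and 22.5 CPM in control, 24.0 and 20.1 in HS, 21.4 and 23.4 in vehicle, and 21.7 and 16.5 in HSP990 mice. R6/2 mice gave 23.4 and 23.6, 19.0 and 21.3, 21.7 and 20.5, and 15.2 and 22.1 CPM. In Hsf1-/- mice Ttc38 was 7.33 and 12.7, 7.12 and 12.8, 5.89 and 6.52, and 5.85 and 5.56 CPM. All 8 lay below the 16 other mice, although the untreated Hsf1-/- and wild type mice among them chose the gene. Control mouse 2 and HS mouse 2 of the Hsf1-/- group were above 12 CPM, while the other 6 lay between 5.56 and 7.33 CPM. In treated mice Ttc38 was 2.72-fold lower in Hsf1-/- than in wild type mice (−1.44 ± 0.19, adjusted p = 0.00012, edgeR), and 2.57-fold lower than in R6/2 mice (−1.36 ± 0.18, adjusted p = 6.7e-05, edgeR). After HSP990 the difference was −1.74 ± 0.27 (adjusted p = 0.0010, edgeR). After HS it was −1.15 ± 0.26 (adjusted p = 0.042, edgeR), and this call was lost in 15 of the 24 fits that left out 1 mouse, ranging from −1.63 to −0.79. R6/2 against wild type mice did not pass (−0.08 ± 0.18, adjusted p = 0.79, edgeR), with a sign that turned when libraries were scaled by their totals alone (0.49, against a median of 0.56 for all genes).

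**Figure D2:**
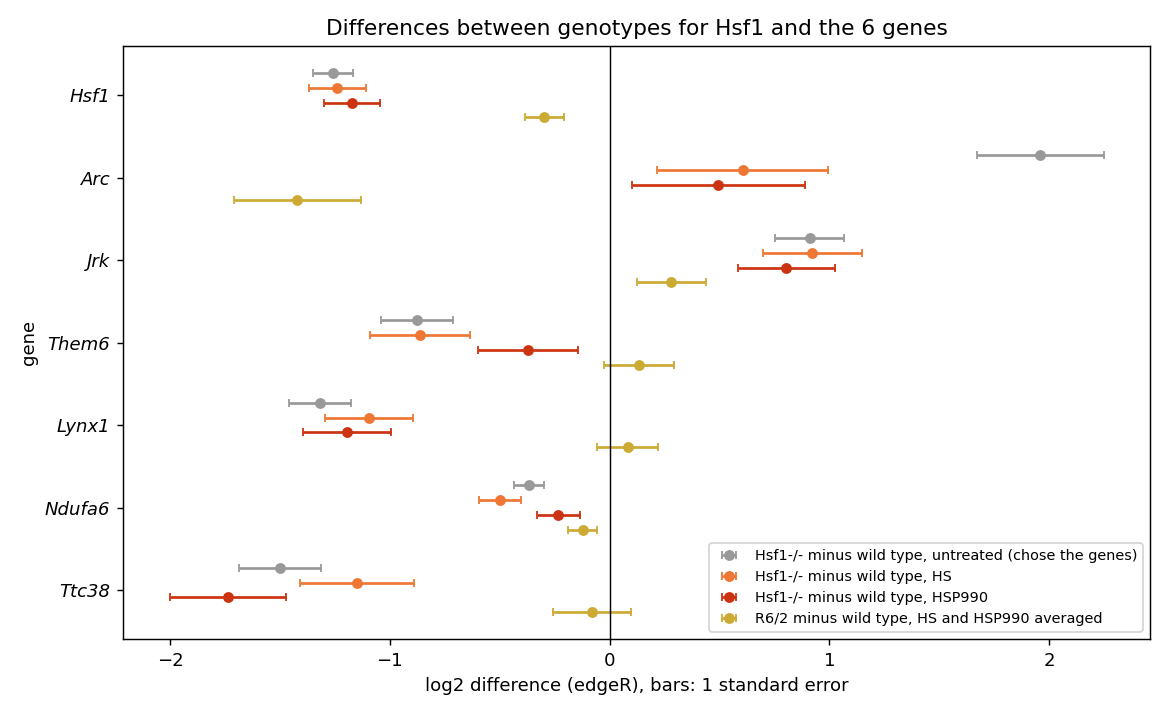
Log2 differences (horizontal axis, edgeR) with 1 standard error for Hsf1 and the 6 genes (vertical axis): Hsf1-/- minus wild type in untreated mice, which chose the genes, after HS and after HSP990, and R6/2 minus wild type averaged over treated mice. Jrk stays above 0.8, and Lynx1 and Ttc38 below −1, in all 3 comparisons of Hsf1-/- with wild type mice, Arc is smaller in treated mice (0.61 and 0.49 against 1.96), and R6/2 differs from wild type mainly for Arc (−1.42).

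R6/2 mice, whose Hsf1 gene was not targeted, served as another reference, although Hsf1 was itself lower in R6/2 than in wild type mice (treated −0.30 ± 0.09, adjusted p = 0.022, groups overlapping; untreated −0.37 ± 0.09, adjusted p = 0.0048, not overlapping; both edgeR). Between treated Hsf1-/- and R6/2 mice 6 of the 6 genes passed, 2 higher and 4 lower, where 28.8% of all genes passed. Ndufa6 overlapped between these genotypes (−0.24 ± 0.07, adjusted p = 0.014, edgeR; exact permutation p = 0.286), and its call was lost with treated libraries only (adjusted p = 0.061, edgeR), with only the groups compared (adjusted p = 0.13, edgeR) and without any 1 of 3 mice: HS mouse 1 or HSP990 mouse 1 of the Hsf1-/- group, or HSP990 mouse 2 of the R6/2 group (adjusted p = 0.051 to 0.087, edgeR). This comparison shares the treated Hsf1-/- mice with the comparison against wild type mice. Within R6/2 mice 0 of 6 genes passed after HS, with Ndufa6 at an unadjusted p under 0.05 (0.22 ± 0.10, adjusted p = 0.57, edgeR) and 0 in DESeq2, where 0.0436% of all genes passed in edgeR. After HSP990 0 of 6 passed, with Arc at an unadjusted p under 0.05 and 1 of 6 in DESeq2, where 1.43% of all genes passed in edgeR. HSF1-induced chaperones rose in the same R6/2 mice, 3 of 12 after HS (median 0.75) and 11 of 12 after HSP990 (median 1.89). In wild type mice, described without a test, the responses of the 5 genes other than Arc lay between −0.29 and 0.10 after HS and between −0.24 and 0.20 after HSP990 (log2).

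The order of the 12 groups put the Hsf1-/- groups together for 4 of the genes. The control and vehicle groups of Hsf1-/- and wild type mice chose the genes, so this order follows in part from that choice. It is given as a description, and how many of all genes show such an order was not counted. For Jrk the 4 Hsf1-/- groups were the highest, from 8.22 ± 0.68 CPM after HS to 10.9 ± 0.48 CPM after HSP990 (SD, n = 2), and the lowest of them did not overlap with the next group, R6/2 after HSP990. For Lynx1, Them6 and Ttc38 they were the 4 lowest. Lynx1 and Ttc38 did not overlap with the next group above, whereas for Them6 0 of 11 neighbouring pairs in the order were apart. For Arc the 3 highest groups were Hsf1-/- control, vehicle and HS, the wild type HS group came next, and the lowest was R6/2 vehicle at 1.02 ± 0.67 CPM. For Ndufa6 the wild type control group was highest (294.3 ± 19.9 CPM) and the R6/2 vehicle group lowest (175.7 ± 0.124 CPM), below the 4 Hsf1-/- groups. With 2 mice in a group, overlap is a coarse measure.

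The other genes near Hsf1 were counted by distance. Of 229 other genes tested within 10 Mb of Hsf1, 11 passed between treated Hsf1-/- and wild type mice (4.8%; 5 higher, 6 lower). Without the 6 genes, 7 of 223 passed (3.14%), against 2.17% of all genes. Within 1 Mb of Hsf1 0 of 57 passed, within 2 Mb 2 of 86, and within 5 Mb 7 of 154. The median difference of the 223 genes was −0.02 (log2). On the rest of chromosome 15, 13 of 314 genes passed (4.14%).

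The nearest tested genes on either side were examined next, and 0 of 11 outside the set passed in edgeR. Hsf1 is flanked by Bop1, a ribosome biogenesis gene whose start lies 0.2 kb away, and Dgat1, which makes triglycerides. Bop1 was 34.8 ± 3.4 CPM in treated Hsf1-/- and 37.8 ± 6.75 CPM in treated wild type mice (SD, n = 4; −0.10 ± 0.12, adjusted p = 0.72, edgeR). Ndufa6 is flanked by Smdt1, a subunit of the mitochondrial calcium uniporter (71.8 ± 6.17 against 85.0 ± 20.4 CPM, −0.21 ± 0.11, adjusted p = 0.38, edgeR), and Cyp2d22 (−0.31 ± 0.20, adjusted p = 0.49, edgeR). Next to Ttc38, Pkdrej was 1.58 ± 0.81 against 2.90 ± 0.835 CPM (−0.998 ± 0.343, adjusted p = 0.17, edgeR). The neighbours of Arc, Jrk, Them6 and Lynx1 outside the set, Adgrb1, Psca, Lypd2, Slurp2 and Ly6k, had at most 48 counts in any library and were measured with little precision.

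Outside the set, 7 genes of the window passed in treated mice, of which only St13 passed within either experiment. For the other 6 the adjusted p in edgeR was 0.056 to 0.18 after HS and 0.11 to 0.4 after HSP990. St13, a cochaperone that binds HSP70, was 62.3 ± 4.04 CPM in Hsf1-/- and 139.4 ± 0.37 CPM in wild type mice after HS, and 63.9 ± 5.82 and 207.2 ± 28.1 CPM after HSP990 (SD, n = 2). Its averaged difference was −1.43 ± 0.11 (adjusted p = 1.6e-07, edgeR), against −0.48 ± 0.11 in untreated mice. Its level in untreated wild type mice was 85.5 ± 0.223 CPM in control and 88.4 ± 1.75 CPM in vehicle mice, and 64.8 ± 0.962 and 60.1 ± 2.77 CPM in the same Hsf1-/- groups. Xpnpep3, which encodes an aminopeptidase and starts next to St13 on the other strand, was 9.66 ± 1.41 against 15.6 ± 1.00 CPM (SD, n = 4; −0.70 ± 0.13, adjusted p = 0.0052, edgeR). Rangap1, a regulator of nuclear transport, was also lower (−0.41 ± 0.09, adjusted p = 0.022, edgeR). Baiap2l2 (1.03 ± 0.26, adjusted p = 0.048), Pick1 (0.54 ± 0.11, adjusted p = 0.015), Poldip3 (0.45 ± 0.10, adjusted p = 0.027) and Mief1 (0.37 ± 0.08, adjusted p = 0.024; all edgeR) were higher. Treated R6/2 mice also passed against wild type, in the same direction, for Xpnpep3 (−0.60, adjusted p = 0.0027), Poldip3 (0.51, adjusted p = 0.0017) and St13 (−0.32, adjusted p = 0.033, all edgeR). Rangap1, Baiap2l2, Pick1 and Mief1 did not pass there, where 23.5% of all genes did. Between treated Hsf1-/- and R6/2 mice Xpnpep3 (−0.095, adjusted p = 0.63) and Poldip3 (−0.061, adjusted p = 0.70, both edgeR) did not pass, and the others did. Between untreated Hsf1-/- and wild type mice St13 alone of the 7 passed. The others were at 0.074 (Xpnpep3), −0.265 (Rangap1), 0.706 (Baiap2l2), 0.278 (Pick1), 0.29 (Poldip3) and 0.065 (Mief1), with adjusted p of 0.2 to 0.85 (edgeR). Xpnpep3 rose in wild type mice after HS (0.80, adjusted p = 0.031, edgeR) and HSP990 (0.78, adjusted p = 0.04, edgeR). In Hsf1-/- mice its responses were −0.07 and 0.11 and did not pass. Ccdc134 passed after HSP990 alone (1.24 ± 0.27, adjusted p = 0.025, edgeR).

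**Figure D3:**
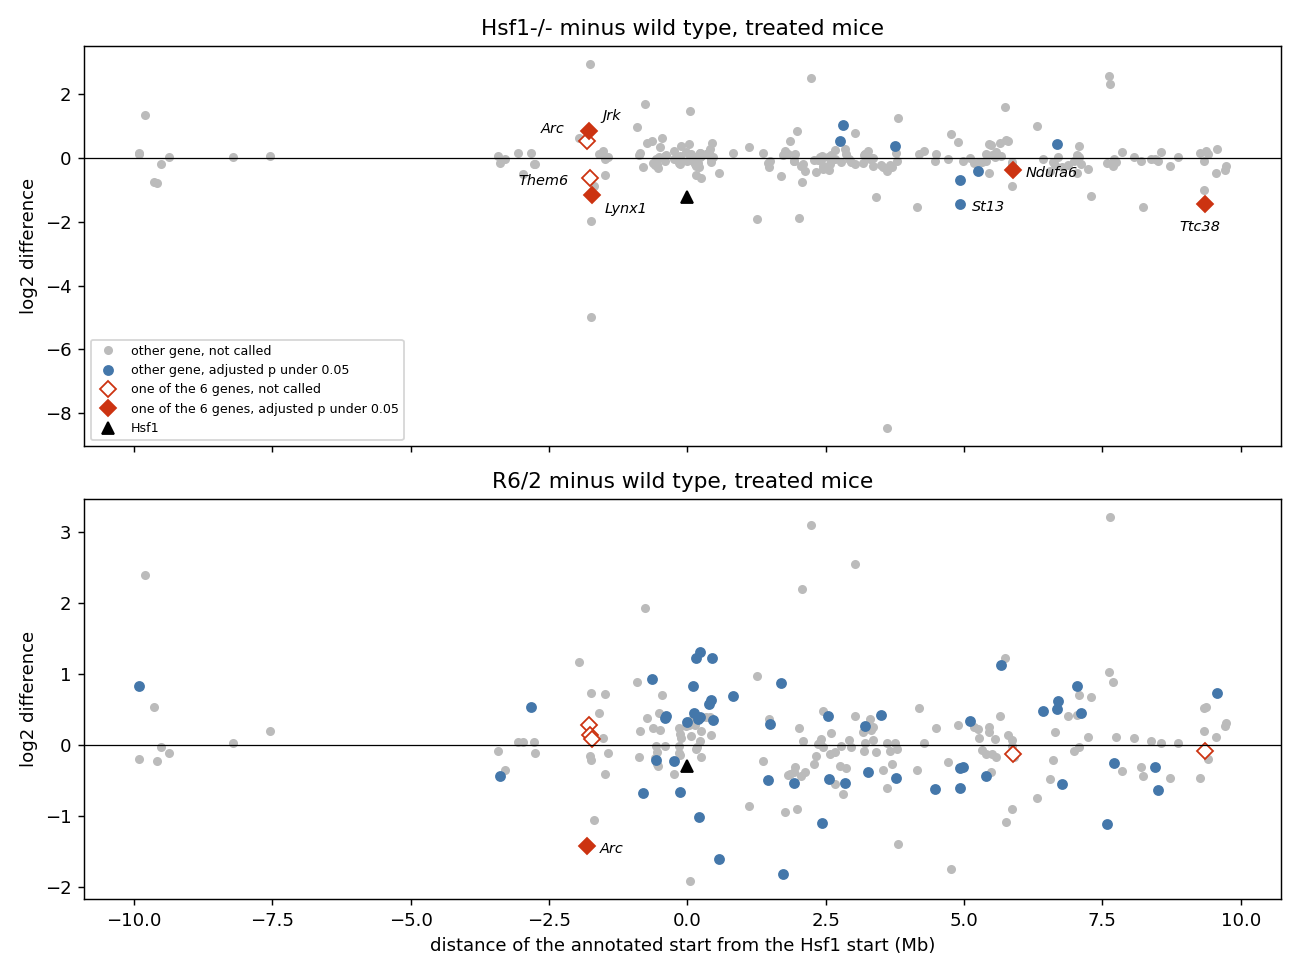
Log2 difference (vertical axis, edgeR) of the genes tested within 10 Mb of Hsf1 against the distance of their start from that of Hsf1 in Mb (horizontal axis), for Hsf1-/- minus wild type (top) and R6/2 minus wild type (bottom) in treated mice. In the upper panel 4 of the 6 genes and 7 other genes passed the test, scattered over the window; the 2 lowest grey points, Slurp2 and Rpl3, had no counts in treated Hsf1-/- mice, so their fitted values are no measure of size.

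The expression of the 6 genes over 24 mice was most like that of different genes. Likeness was the Pearson correlation of log2 (CPM + 0.5) over the 24 libraries, which share genotypes and treatments, and it is given as a description. For Ttc38 the 3 genes most like it all lay on chromosome 15: Rpl30 (r = 0.943), a ribosomal protein gene 41.93 Mb from Hsf1, Fzd6 (r = 0.917), a Wnt receptor gene at 37.47 Mb, and Hsf1 (r = 0.871). Genes like Them6 included Mrps12 (r = 0.851) and Nenf (r = 0.843) on other chromosomes. The likest genes of the other 4 all lay on other chromosomes, among them Mpdz for Lynx1 (r = 0.842), Pign for Jrk (r = 0.82), Idh3g for Ndufa6 (r = 0.938) and Timm44 for Arc (r = 0.881). Among the 6 genes the correlation was highest for Lynx1 and Ttc38 (r = 0.805) and lowest for Jrk and Ttc38 (r = −0.85). All 6 were chosen for a genotype difference in some of these mice, so these correlations follow in part from that choice.

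Among the Hsf1-/- mice, values of Rpl30 and Fzd6 differed as follows. Rpl30 lay between 27.9 and 43.9 CPM in wild type mice (median 35.4) and between 25.7 and 43.6 CPM in R6/2 mice (median 31.8). In Hsf1-/- mice it was 16.3 CPM in HS mouse 2 and at most 0.142 CPM in the other 7. Fzd6 lay between 5.76 and 7.29 CPM in wild type mice (median 6.51) and between 6.54 and 9.95 CPM in R6/2 mice (median 7.71). In Hsf1-/- mice it was highest in HS mouse 2 (5.76 CPM) and control mouse 2 (4.58 CPM), the 2 mice with the highest Ttc38, and 1.62 to 3.70 CPM in the other 6. HS mouse 2 thus stood apart for all 3 genes, and control mouse 2 for Ttc38 and Fzd6 but not Rpl30. Ribosomal protein genes have many processed copies in the genome, so the counts of Rpl30 are uncertain. Genotypes at these loci were not measured.

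**Figure D4:**
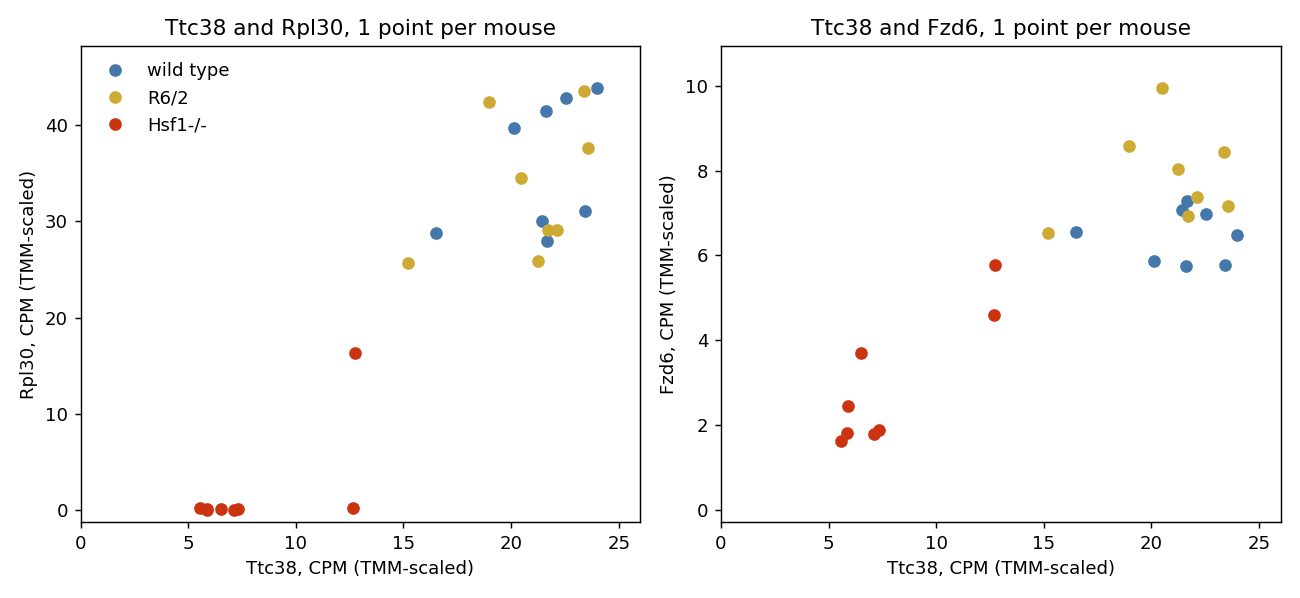
CPM of Rpl30 (left) and Fzd6 (right) on the vertical axis against CPM of Ttc38 on the horizontal axis, 1 point per mouse, coloured by genotype, all axes linear. Wild type and R6/2 mice form 1 cloud at high values, 6 Hsf1-/- mice lie at 5.56 to 7.33 CPM of Ttc38, and 2 Hsf1-/- mice lie between at 12.7 and 12.8 CPM.

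Marker lists of muscle and other cells were compared in the same mice. Between treated Hsf1-/- and wild type mice 0 of 8 muscle fibre, 0 of 5 slow fibre, 0 of 6 adipocyte, 0 of 6 macrophage, 0 of 5 endothelial, 0 of 3 erythroid and 0 of 3 T and B cell markers passed in edgeR. Over all genes 2.17% passed, so lists this short say little. Within the experiments only the macrophage marker C1qa passed, lower after HSP990 (−1.015, adjusted p = 0.036, edgeR). Of 6 adipocyte markers 3 were higher after HS (median −0.06) and 6 after HSP990 (median 1.36). After HSP990 their sums overlapped, at 524 and 2200 CPM in the Hsf1-/- mice and 282 and 717 CPM in the wild type mice. Slow fibre markers had a median of −0.52 after HS and −1.115 after HSP990, where their sums also overlapped (10.2 and 224 against 57.1 and 432 CPM). Summed adipocyte markers ranged from 282 to 1490 CPM in wild type, 216 to 409 CPM in R6/2 and 524 to 2200 CPM in Hsf1-/- mice, and slow fibre markers from 57.1 to 432, 12.1 to 181 and 10.2 to 503 CPM. Macrophage markers summed to 36 to 72.7, 38.2 to 79 and 33.5 to 59.9 CPM, endothelial markers to 336 to 564, 329 to 546 and 428 to 548 CPM, erythroid markers to 7.38 to 76.1, 9.11 to 49 and 10.4 to 80.4 CPM, and T and B cell markers to 0 to 0.657, 0.044 to 1.03 and 0.0796 to 3.42 CPM. The part of these cells in the differences of the 6 genes was not tested.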

How the data were processed

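PolyA RNA from quadriceps femoris was sequenced with a strand-specific paired-end protocol. Per the labels, the authors used Bowtie and DESeq2 with the mm9 build; the counting program, its annotation and its use of strand are not given in the sources used here. The authors deposited raw counts for 18669 genes in 24 libraries, with totals of 22450177 to 46599238, and these counts were used as deposited. The 13754 genes that reached a count of 2 in 10 or more libraries were fitted in edgeR 4.0.16 (R 4.3.3) with TMM scaling, 12 groups and 12 residual degrees of freedom, and tested by quasi-likelihood with Benjamini-Hochberg adjustment over all genes tested at 0.05. Treated or untreated comparisons average the HS and HSP990, or control and vehicle, differences. Errors are SD between mice for CPM and SE for log2 differences. An SD with n = 4 joins HS and HSP990 mice, so it includes any difference between these treatments. The p-values measure the spread between these samples.

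The 6 genes, the gene lists and the markers were chosen with earlier results of these data known. Treatment responses of wild type and Hsf1-/- mice share untreated mice with that choice and were not tested for the 6 genes. Other named genes were up to 10 called genes of the window with the largest change, genes next to the threshold, the nearest tested neighbours, the 3 genes most correlated with each of the 6, and up to 5 called genes of each list. Some genes that this rule names are not reported here. Rpl3 lies outside this rule and was named after its values were seen. Alternatives were other scalings (RLE, library size alone), no filter or filterByExpr, DESeq2 1.42.0, a replicate block, treated libraries only, only the groups compared, smaller windows, exact permutation over 4 against 4 mice, and leaving out each mouse. The permutation exchanged HS and HSP990 mice freely and did not hold treatment fixed. Replicate numbers did not pair the samples: over 66 pairs of groups the correlation of same-numbered deviations had a median of −0.021. On simulated data for the treated Hsf1-/- against wild type comparison, 73% of the genes changed 2-fold and 96% of those changed 4-fold, among 200 changed of 13754, were recovered with 5 false calls; smaller changes were not simulated. Copies were searched with minimap2 2.31-r1302, and promoters came from the RefSeq GRCm38.p6 table.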

Additional observations from a re-analysis of the deposited data

Results flagged for a closer look

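For Ndufa6, the R6/2 mice moved the opposite way to both other genotypes between vehicle and HSP990. Both HSP990 mice lay below both vehicle mice in wild type (219.4 and 204.3 against 228.3 and 219.9 CPM) and in Hsf1-/- (171.8 and 188.8 against 196.8 and 206.3 CPM), whereas both lay above in R6/2 (180.9 and 191.2 against 175.6 and 175.8 CPM). The log2 responses were −0.08 ± 0.10 in wild type, −0.16 ± 0.10 in Hsf1-/- and 0.08 ± 0.10 in R6/2 mice (SE). Wild type minus R6/2 was therefore −0.16, and R6/2 minus Hsf1-/- was 0.24. These differences between genotypes were not tested. With 2 mice against 2, the HSP990 and vehicle mice did not overlap for 49% of all genes in wild type, 38.1% in Hsf1-/- and 39.1% in R6/2 mice.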

How the results depend on the processing

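Between treated Hsf1-/- and wild type mice, Jrk, Lynx1 and Ttc38 kept their call in every alternative and in each fit without 1 mouse, and Arc passed in none. The count of the 6 genes called was 4, and 3 to 5 without 1 mouse. DESeq2 called 509 of all genes (299 in edgeR), and without 1 mouse the count was 180 (without Hsf1-/- HS replicate 1) to 383 (without R6/2 HS replicate 1). After HS, 3 of the 6 genes passed, but 1 with library size alone, 5 in DESeq2, 1 with treated libraries only and 0 with only the groups compared, and 0 (without wild type HS replicate 2) to 4 (without R6/2 HS replicate 2) without 1 mouse. Between R6/2 and wild type 1 passed, 6 with library size alone and 1 to 2 without 1 mouse; Ndufa6 (0.44) and Ttc38 (0.49) then changed sign. Between Hsf1-/- and R6/2 6 passed, 5 with library size alone or treated libraries only, 4 with only the groups compared, and 5 to 6 without 1 mouse. In the R6/2 HSP990 response 0 passed, 1 in DESeq2, and 0 to 1 without 1 mouse. Library size alone moved the share of calls that were higher from 28.1% to 42.9% between treated Hsf1-/- and wild type, from 30.1% to 42.1% after HS, from 50.4% to 96.1% between R6/2 and wild type, and from 48.4% to 6.22% between Hsf1-/- and R6/2. The replicate numbers shared only a number: the replicate block left 4 of the 6 genes called in treated mice and 279 of all genes, and changed none of the other counts of the 6.

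Counts of called genes within 10 Mb varied more. For treated Hsf1-/- against wild type the count was 11, but 17 in DESeq2, 5 with treated libraries only, 6 with only the groups compared, and 0, 2 and 7 within 1, 2 and 5 Mb; without 1 mouse it was 6 to 12. After HS it was 4, but 2 with library size alone, 12 in DESeq2, 2 with treated libraries only, 2 with only the groups compared, and 0, 1 and 2 in the smaller windows; without 1 mouse it was 1 to 7. After HSP990 it was 4, but 9 in DESeq2 and 0, 1 and 2 in the smaller windows; without 1 mouse it was 3 to 7. For HSP990 minus HS it was 0, but 1 in DESeq2 and 0 to 2 without 1 mouse. For R6/2 against wild type it was 56, but 146 with library size alone, 34 with only the groups compared, and 21 and 27 within 1 and 2 Mb. For Hsf1-/- against R6/2 it was 78, but 145 with library size alone and 17 and 29 within 1 and 2 Mb. For the R6/2 HS response it was 0, but 4 in DESeq2 and 0 to 11 without 1 mouse (11 without R6/2 HS replicate 2). For the R6/2 HSP990 response it was 4, but 8 in DESeq2, 0 with only the groups compared, and 1 within 1 and 2 Mb; without 1 mouse it was 0 to 7. In untreated mice it was 8, but 0, 4 and 5 in the smaller windows, and 4 to 10 without 1 mouse. Smaller windows hold fewer genes by construction; the cause of the other changes was not tested.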

Other observations

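Calls between Hsf1-/- and wild type mice were counted by chromosome, as a description with no test. In treated mice 25 of 544 genes of chromosome 15 passed (4.6%), the highest share among the autosomes and X, followed by chromosome 1 (2.84%). Chromosome 15 also had the highest share after HS (1.65%) and after HSP990 (2.76%). These shares count Hsf1 and the genes chosen for this genotype difference, so the ranking rests in part on that choice. Beyond 10 Mb from Hsf1, which leaves those genes out, the shares of chromosome 15 were 4.14% in treated mice, 1.27% after HS and 3.18% after HSP990. The share after HS was then below those of chromosomes 3 (1.53%), 16 (1.45%) and X (1.3%). In treated mice and after HSP990 it stayed above the next chromosomes, chromosome 1 (2.84%) and chromosome 11 (2.21%).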
